A study of Danio rerio with 12 samples.

Results

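At 2 and 3 days after a zebrafish tail fin is cut, a set of genes stands high that is low both in the uncut fin and in the older regenerate. The 140 genes described here were selected on their measured levels in these libraries. Counts were divided by each library's total, in units of 1000000 (CPM), and 1 CPM was added to each stage mean. The largest ratio between neighbouring stage means then separated high stages from low ones. A gene was kept when its high stages were 2 and 3 days post amputation (dpa), when each of the 6 high libraries exceeded each of the 6 low ones, and when both high means were at least 5 CPM. Of 33737 gene identifiers, 1081 met these conditions, the 150 with the largest ratios were taken, and 10 of them (FREM3, adam8a, lepb, FREM2, il11a, FN1, SALL1, krt18a.1, FGF20 and HYOU1) were left out by name. Because 2 and 3 dpa against 0 and 10 dpa is the contrast that chose the genes, their levels along it are a description with no test.

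The fins came from adult fish of the AB-Tu strain, between 8 and 18 months old, and no allele, transgene or agent is given for any group. The 4 groups were the caudal fin at 0 dpa, the uncut fin, and the fin at 2, 3 and 10 dpa. Each group had 3 libraries, each from a pool of 6 fish, so the spread between libraries is that between pools. Library totals ran from 8833337 to 22843743 counts. Within every stage, each pair of libraries differed beyond counting noise, with chi-square values of 19.4 to 123 per degree of freedom. The highest value was that of 2 dpa replicates 1 and 2. For 3 dpa against 2 dpa, the count of called members is given with and without replicate 2. The members whose call then changes are named.

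A cut zebrafish fin closes its wound with migrating epidermis, which thickens into a wound epidermis. Beneath it connective tissue and bone-forming cells lose their mature state, divide and gather into the blastema. Fgf, Wnt, activin and retinoic acid signals are known to be needed in these first days. Outgrowth and the rebuilding of rays, nerves and vessels follow.

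Of the 140 genes, 121 had a symbol and 19 had none. The ratio between the lower high mean and the higher low mean, each with 1 CPM added, ran from 12.24 for hrh3 to 2.42 for npm1a, with a median of 3.14. It exceeded 5 for 20 genes and was under 3 for 58. Just inside the limit lay CMKLR1 (2.43), txnb (2.43) and npm1a (2.42), and just outside lay PABPC4 (2.42), GOLT1B (2.42) and FOXP4 (2.41). The limit therefore cuts through a run of nearly equal ratios. Together the 140 genes took 0.542 to 0.682% of all counts at 0 dpa, 2.65 to 3.50% at 2 dpa, 2.22 to 2.65% at 3 dpa and 0.646 to 0.799% at 10 dpa. Without the apolipoprotein gene apoeb the shares were 0.278 to 0.300%, 1.89 to 2.33%, 1.44 to 1.78% and 0.446 to 0.471%. The lowest high library lay a median of 2.1 times above the highest low library, and at least 2 times above it for 79 genes.

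**Figure D1:**
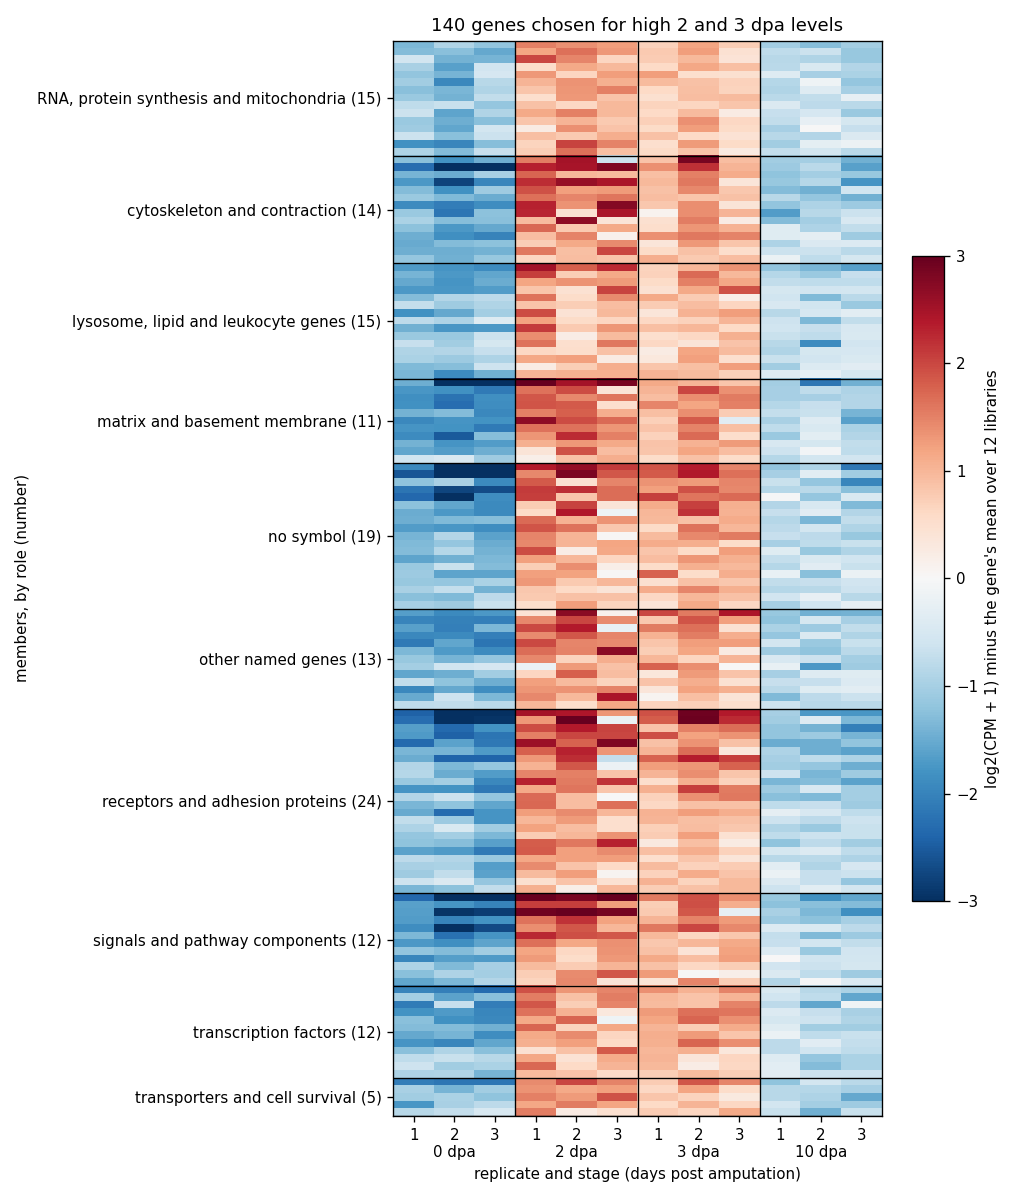
Heat map of the 140 genes (rows, grouped by role with the number of genes) in the 12 libraries (columns, by replicate and stage). Colour is log2(CPM + 1) minus the gene's mean over the 12 libraries, and the blocks at 2 and 3 dpa are high because the genes were chosen for that. Single rows at 2 dpa differ between replicates 1, 2 and 3, as for cd248b at 60.3, 226 and 20.6 CPM.

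The largest group, 24 genes, codes for receptors and adhesion proteins. Its leading gene, hrh3 (ENSDARG00000035942), is named for histamine receptor H3, in mammals known as a brain receptor that curbs transmitter release. It stood at 3.13, 0.850 and 1.81 CPM at 0 dpa, at 125, 118 and 54.5 CPM at 2 dpa, at 82.7, 168 and 115 CPM at 3 dpa, and at 10.2, 5.71 and 5.60 CPM at 10 dpa. The 2 dpa and 3 dpa values of hrh3 overlapped, and the 10 dpa values all lay above the 0 dpa values. Other peptide and transmitter receptors in the group were VIPR1, which binds vasoactive intestinal peptide and its relative PACAP, cckbra, a cholecystokinin receptor, and gria4a, a subunit of AMPA glutamate receptors. Their means at 0, 2, 3 and 10 dpa were 0.349, 20.9, 12.05 and 0.764 CPM for VIPR1, 0.419, 13.4, 7.57 and 0.606 CPM for cckbra, and 0.930, 28.5, 22.6 and 2.48 CPM for gria4a. All had means under 1 CPM in the uncut fin, as did 22 of the 140 genes.

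The endothelin receptor gene EDNRB (ENSDARG00000053498) read 0.670, 1.78 and 0.906 CPM at 0 dpa, 49.1, 27.9 and 58.5 CPM at 2 dpa, 14.6, 20.5 and 14.6 CPM at 3 dpa, and 2.00, 2.05 and 2.70 CPM at 10 dpa. Every 2 dpa library exceeded every 3 dpa library. RET, a receptor tyrosine kinase for ligands of the GDNF family, and gfra3, the co-receptor that in mammals binds artemin, were both on the list. RET read 27.1, 48.6 and 11.2 CPM at 2 dpa and 31.5, 33.6 and 45.5 CPM at 3 dpa, against a range of 4.42 to 6.47 CPM in the uncut fin and of 3.94 to 5.65 CPM at 10 dpa. The co-receptor gfra3 followed the same order of libraries at 2 dpa, with 12.0, 23.4 and 2.2 CPM, and reached 17, 26.2 and 21.4 CPM at 3 dpa. Its 2 dpa replicate 3 value lay only just above the 10 dpa values of 1.65, 2.11 and 1.76 CPM.

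Guidance molecules and their receptors made up a further block of this group. It held UNC5B, a netrin receptor, epha7, an Eph receptor, SEMA5B, a transmembrane semaphorin, and anos1b, named for the protein lost in Kallmann syndrome. UNC5B read 89.8, 124 and 72.1 CPM at 2 dpa and 85.0, 174 and 120 CPM at 3 dpa, against 8.38 to 11.2 CPM in the uncut fin. The Notch ligand jag1a read 16.2, 15.6 and 12.0 CPM at 0 dpa, 138, 118 and 197 CPM at 2 dpa, 48.0, 73.3 and 46.1 CPM at 3 dpa, and 16.3, 22.2 and 18.4 CPM at 10 dpa. MET, the receptor for hepatocyte growth factor, was even between libraries, at 70.5, 74.5 and 76.0 CPM at 2 dpa and 44.3, 56.4 and 40.6 CPM at 3 dpa, and it returned to 15.8 to 17.4 CPM at 10 dpa against 13.8 to 17.6 CPM at 0 dpa. The receptor tyrosine phosphatases PTPRZ1 and PTPRG were also members, with means of 248 and 38.5 CPM at 2 dpa.

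Genes of signals and pathway components numbered 12. TPH1 (ENSDARG00000036082), the rate-limiting enzyme of serotonin synthesis, read 4.09, 1.1 and 1.25 CPM at 0 dpa, 122, 169 and 118 CPM at 2 dpa, 26.8, 57.8 and 12.6 CPM at 3 dpa, and 7.22, 5.34 and 3.53 CPM at 10 dpa. Its 2 dpa values were all above its 3 dpa values, which ran from 12.6 to 57.8 CPM. ALDH1A2, which makes retinoic acid, read 134, 196 and 101 CPM at 2 dpa and 87.7, 122 and 105 CPM at 3 dpa, against 9.86 to 12.7 CPM in the uncut fin and 17.8 to 21.0 CPM at 10 dpa. INHBA (ENSDARG00000024759), the subunit of activin A, read 136, 108 and 103 CPM at 2 dpa and 55.5, 43.5 and 49.5 CPM at 3 dpa, with no overlap between the stages. For the Wnt pathway, the members were TCF7, a DNA-binding partner of beta-catenin, ctnnb2, a beta-catenin gene, and sfrp2l, named for a secreted frizzled-related protein. TCF7 read 27.8, 34.2 and 33.1 CPM at 0 dpa, 270, 162 and 275 CPM at 2 dpa, 246, 211 and 266 CPM at 3 dpa, and 111, 72.2 and 75.4 CPM at 10 dpa, so that its 10 dpa values all lay above those of the uncut fin.

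**Figure D2:**
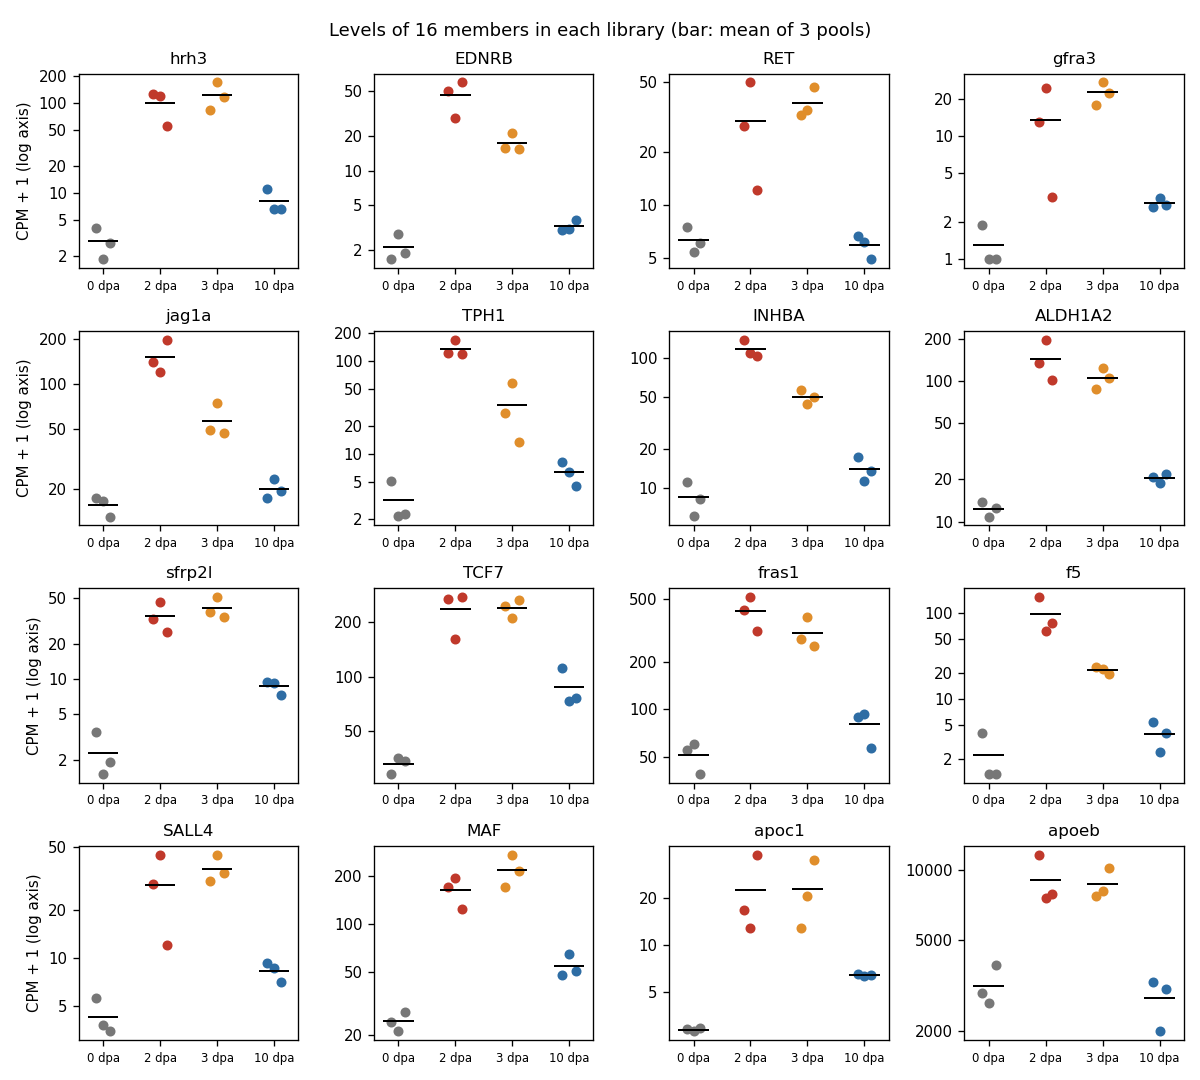
Levels of 16 member genes in each library, as CPM + 1 on a log axis, by stage; points are libraries and bars are means of 3 pools. EDNRB, jag1a, TPH1, INHBA and f5 stand higher at 2 dpa than at 3 dpa without overlap. Several of the genes drawn, among them sfrp2l, TCF7 and MAF, stand higher at 10 dpa than at 0 dpa without overlap. EDNRB, jag1a and INHBA do so as well, by small margins.

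The 12 transcription factor genes included FOSL2 and JUNB, both AP-1 subunits, ETV4, an Ets factor known as a readout of Fgf signalling, SALL4 and PRDM1. JUNB read 889, 407 and 678 CPM at 2 dpa and 470, 444 and 682 CPM at 3 dpa, and in the uncut fin 1 library reached 151 CPM beside 55.9 and 57.4 CPM. ETV4 read 814, 382 and 538 CPM at 2 dpa and 492, 403 and 523 CPM at 3 dpa, against 88.5 to 97.7 CPM at 0 dpa. SALL4, a zinc finger factor of embryonic cells, read 28.3, 43.5 and 11.1 CPM at 2 dpa and 29.5, 43.6 and 33.3 CPM at 3 dpa, against 2.49 to 4.61 CPM at 0 dpa. MAF (ENSDARG00000015890) read 23.1, 20.1 and 26.9 CPM at 0 dpa, 171, 192 and 123 CPM at 2 dpa, 170, 272 and 214 CPM at 3 dpa, and 46.7, 63.8 and 49.2 CPM at 10 dpa. JUNB and ETV4 were thus highest in 2 dpa replicate 1, and SALL4 and MAF in replicate 2.

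Matrix and basement membrane genes numbered 11. The genes fras1 and FREM1 code for proteins of the complex that links epidermis to dermis, and col7a1 codes for the collagen of anchoring fibrils. The level of fras1 was 54.4, 59.2 and 37.8 CPM at 0 dpa, 425, 514 and 315 CPM at 2 dpa, 277, 387 and 251 CPM at 3 dpa, and 88.9, 92.5 and 55.9 CPM at 10 dpa. FREM1 read 285, 272 and 108 CPM at 2 dpa and 211, 175 and 217 CPM at 3 dpa, and col7a1 averaged 60.2, 718, 451 and 128 CPM over the 4 stages. The coagulation factor V gene f5, best known from liver, was placed in this group although it codes for a plasma protein. It read 2.98, 0.340 and 0.340 CPM at 0 dpa and 154, 61.1 and 77.2 CPM at 2 dpa. At 3 dpa f5 read 23.0, 21.2 and 18.5 CPM, and at 10 dpa 4.36, 1.43 and 3.01 CPM. The group further held SULF2, which removes sulfate from heparan sulfate, TIMP2, an inhibitor of metalloproteinases, and cspg4ba, named for the proteoglycan NG2.

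Cytoskeletal and contractile genes numbered 14. PDLIM3, an actin-associated LIM protein of muscle, averaged 2.00, 123, 64.35 and 8.63 CPM at 0, 2, 3 and 10 dpa. Among the others were cald1b (caldesmon), PALLD (palladin), TLN2 (talin), TNNT3 (a troponin T) and spegb, which are known from smooth, striated or heart muscle. The keratin gene krt93 read 1707, 482 and 1919 CPM at 2 dpa and 375, 930 and 706 CPM at 3 dpa, against 76.8 to 160 CPM at 0 dpa. At both stages replicate 2 thus stood on the other side of its fellows, low at 2 dpa and high at 3 dpa. STMN2 and SYT4, known from growing neurons and from vesicle release, were in this group as well, with means of 14.9 and 8.16 CPM at 2 dpa.

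Several members are best known from nerves, and markers of nerve cells were examined beside them. Of 11 glial and neuronal markers matched by symbol, chosen after the members were known, 7 were too low to test. The glial genes SOX10, mbpa and plp1b were lower at 2 and 3 dpa than at 0 and 10 dpa (edgeR, adjusted p under 0.05), and tubb5 was higher. SOX10 ran from 22.9 to 31.9 CPM at 0 dpa, from 0.314 to 1.88 CPM at 2 dpa and from 1.23 to 3.90 CPM at 3 dpa. The level of tubb5 ran from 3.99 to 15.5 CPM at 0 dpa and from 177 to 261 CPM at 2 dpa. It ran from 229 to 349 CPM at 3 dpa and from 63.3 to 84.7 CPM at 10 dpa. The neuronal RNA-binding genes ELAVL3 and ELAVL4 stayed under 0.7 CPM in every library. In bulk tissue, fewer cells of a type and less RNA per cell cannot be told apart.

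The 15 genes of lysosomes, lipid handling and leukocytes included apoeb, which read 2937, 2644 and 3862 CPM in the uncut fin. It read 11720, 7555 and 7864 CPM at 2 dpa, 7741, 8138 and 10200 CPM at 3 dpa, and 3277, 1994 and 3042 CPM at 10 dpa. Its chromosomal neighbour apoc1, named for another apolipoprotein, read 1.86, 1.78 and 1.93 CPM at 0 dpa, 15.7, 11.9 and 37.3 CPM at 2 dpa, 12.0, 19.7 and 34.1 CPM at 3 dpa, and 5.51, 5.34 and 5.40 CPM at 10 dpa. In the RefSeq gene table (assembly GRCz12tu), apoeb and apoc1 are adjacent on chromosome 16, and bcl2l10 and MAPK6 on chromosome 18. These were the 2 adjacent pairs among the 97 members matched to a single RefSeq gene, which lay on 24 chromosomes with at most 10 on any. The group also held the lysosomal proteases ctsla (cathepsin L) and CTSD (cathepsin D), the cholesterol carrier NPC2, ACOD1, which makes itaconate in activated macrophages, and tlr18, a toll-like receptor of fish.

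Macrophage and leukocyte markers were examined beside this group. Of 26 list genes tested, 10 (38.5%) were higher and 7 (26.9%) lower at 2 and 3 dpa than at 0 and 10 dpa, against 25.3% and 25.8% of all genes tested by edgeR. Of these, apoc1 and SLC7A7 are members and so fixed, and without them 8 of 24 were higher and 7 lower. The summed level of the list ran from 15200 to 18200 CPM at 0 dpa, from 2780 to 3780 CPM at 2 dpa, from 3960 to 6260 CPM at 3 dpa and from 6560 to 10900 CPM at 10 dpa. At 0 dpa most of this sum is cd74b, an antigen presentation gene, which averaged 11600, 1960, 2870 and 5390 CPM. A gene of the same kind, cd74a, ran from 3950 to 5680 CPM at 0 dpa and from 430 to 810 CPM at 2 dpa. The fall of the sum therefore mostly follows these genes and is not a fall of the list as a whole. The pan-leukocyte gene CORO1A averaged 44.2, 41.7, 37.4 and 47.6 CPM, and the macrophage receptor gene marco 2.30, 4.91, 6.23 and 4.51 CPM, neither passing the test. Levels of other markers moved in both directions. The level of csf1rb went from 2.23 to 2.94 CPM at 0 dpa to 0.452 to 0.493 CPM at 2 dpa. For ptprc the 3 dpa values, 8.54 to 16.6 CPM, lay below all its 0 dpa values, while its 2 dpa values of 12.6 to 41.4 CPM overlapped them. For IRF8 the 3 dpa values, 35.4 to 52.6 CPM, lay above all its 0 dpa values. The part of cell numbers in the levels of these members was not tested.

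RNA, protein synthesis and mitochondrial genes numbered 15, with ratios from 2.42 to 3.96. They included the translation helicase eif4a1a, the nucleolar protein npm1a, the mitochondrial chaperone HSPD1, the nuclear pore protein NUP210 and the arginine methyltransferases PRMT5 and PRMT6. HSPD1, known to be needed for fin regeneration in zebrafish, read 37.1, 18.6 and 30.3 CPM at 0 dpa, 130, 169 and 115 CPM at 2 dpa, 88.6, 113 and 68.5 CPM at 3 dpa, and 35.8, 40.7 and 26.2 CPM at 10 dpa. Of the 5 transporters and survival genes, bcl2l10, an inhibitor of apoptosis in mammals, averaged 11.6, 174, 148 and 30.1 CPM. Its counterpart bcl2l11, named for the pro-apoptotic protein Bim, averaged 2.38, 16.5, 12.0 and 2.96 CPM. The remaining 13 genes with symbols include TCIM, usp54a and ELAPOR2, and ENSDARG00000074369, one of the 19 without a symbol, read 2149, 2323 and 1598 CPM at 2 dpa.

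A comparison that the choice of genes did not fix is 3 dpa against 2 dpa, which asks how the early stages differ. The rule bounds this difference below the gap that chose each gene but does not set its direction. Of the 140 genes, 8 (5.71%) were lower at 3 dpa and 0 were higher, at an adjusted p under 0.05 by edgeR's quasi-likelihood test with Benjamini-Hochberg adjustment over all 16612 genes tested. Over all those genes, 0.494% were lower and 3.28% were higher. The median log2 change was -0.23 for the 140 genes and 0.01 for all genes. At an unadjusted p under 0.05, 23 members were lower and 2 higher, and DESeq2 called 14 lower and 0 higher. By stage means alone, 104 members stood higher at 2 dpa and 36 at 3 dpa. For the unadjusted, DESeq2 and stage-mean counts no share over all genes was computed, so how far they exceed it is not known.

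The falls were in f5, TPH1, EDNRB, jag1a, arhgap32a, si:dkey-119m7.4, PTPRZ1 and INHBA. The fall of jag1a was the steadiest, with a log2 change of -1.40 ± 0.24 (SE) and an adjusted p of 0.0076 by edgeR. It was lost in 1 of 18 other settings, the fit of the compared stages alone (adjusted p = 0.0744, with 5.41e-06 to 0.0744 over all 18), whereas the other 7 were lost in 5 to 12 settings. EDNRB fell by 1.42 ± 0.31 on the log2 scale (edgeR, adjusted p = 0.0227) and PTPRZ1, whose levels were 299, 176 and 267 CPM at 2 dpa and 86.1, 125 and 96.5 CPM at 3 dpa, fell by 1.24 ± 0.28 (edgeR, adjusted p = 0.0261). Without 3 dpa replicate 2, the highest of its stage, the log2 change of TPH1 was -2.67. For f5, TPH1 and INHBA the log2 changes were -2.19 ± 0.55, -2.03 ± 0.48 and -1.16 ± 0.28 (edgeR, adjusted p = 0.0422, 0.0313 and 0.0343). In 7 of the 8 genes no 2 dpa library overlapped a 3 dpa library, arhgap32a being the exception. The test had already picked these genes, so their lack of overlap is no separate result. Among all members, 27 had no overlap in either direction, and no share over all genes was computed for this count.

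How many genes fell depended on single libraries. The count of lower genes was 16 without 2 dpa replicate 2, and 2 genes were then higher. Those lower there but not in the main fit were cxl34c, ggt1a, slc4a7, krt93, epha7, MET, PALLD and si:dkey-119m7.8. Those higher were si:dkey-283b15.2 and ENSDARG00000029738. The count of lower genes was 1 without 2 dpa replicate 1, without 2 dpa replicate 3, without 3 dpa replicate 1 or without 3 dpa replicate 3. That gene was jag1a in each case. Leaving out 10 dpa replicate 1, 2 or 3 gave 5, 5 and 4, and the fit of the compared stages alone gave 0. The share over all genes was not computed in any of these settings. The chemokine gene cxl34c, at 336, 308 and 537 CPM at 2 dpa and 125, 160 and 112 CPM at 3 dpa, had a log2 change of -1.54 ± 0.40 and missed the limit (edgeR, adjusted p = 0.0509). It passed with RLE normalisation, unscaled library totals, a replicate block, DESeq2 and some single libraries left out. Over all 18 other settings its adjusted p ran from 0.00512 to 0.206 (edgeR or DESeq2).

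The other such comparison is 10 dpa against 0 dpa, which asks how far each gene had come back to its level in the uncut fin. Of the 140 genes, 35 were higher at 10 dpa and 0 were lower by edgeR, against 6.62% higher and 2.78% lower over all genes tested. At an unadjusted p under 0.05, 66 members were higher and 0 lower, and DESeq2 called 41 higher and 0 lower. The median log2 change was 0.68 for the members and 0.04 for all genes, or 0.13 for all genes when library totals were not rescaled. By stage means, which are not rescaled, 129 members stood above the uncut fin and 11 below it. Here too no share over all genes was computed for the unadjusted, DESeq2 and stage-mean counts. The difference between the 10 dpa and 0 dpa means was a median of 9.43% of the distance from the 0 dpa mean to the mean of 2 and 3 dpa, from -7.49% to 26.4%. The choice of genes bounds this share from above, so it is a description.

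Of the 35 genes, 14 kept the call in all 18 other settings, 11 of them with a symbol. Among signals, sfrp2l read 2.46, 0.510 and 0.906 CPM at 0 dpa and 8.37, 8.14 and 6.23 CPM at 10 dpa, a log2 change of 2.39 ± 0.42 (edgeR, adjusted p = 0.00429). Among receptors and adhesion proteins, IGSF3, an immunoglobulin domain protein, read 15.7, 8.75 and 13.1 CPM at 0 dpa and 39.0, 33.2 and 27.4 CPM at 10 dpa (log2 change 1.31 ± 0.23, edgeR, adjusted p = 0.00492). PTPRG also kept its call, at 2.15 to 3.50 CPM and then 7.16 to 9.38 CPM (log2 change 1.38 ± 0.27, edgeR, adjusted p = 0.00748). In each of these genes the groups did not overlap.

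Transcription factors with a stable call were MAF (log2 change 1.09 ± 0.21, edgeR, adjusted p = 0.00748) and dachc, named for a dachshund factor, at 5.77 to 7.44 CPM and then 16.4 to 23.2 CPM (log2 change 1.41 ± 0.26, edgeR, adjusted p = 0.00653). In the matrix group the stable calls were cspg4ba, at 4.75 to 6.40 CPM and then 12.1 to 17.3 CPM, and zanl, at 0.255 to 0.595 CPM and then 1.56 to 2.07 CPM. The survival gene bcl2l10, at 11.3 to 12.1 CPM and then 23.0 to 37.0 CPM, and the aminopeptidase gene RNPEP, at 2.38 to 3.87 CPM and then 7.68 to 9.63 CPM, were stable too, as were ELAPOR2 and si:ch211-197l9.2. The largest log2 change, 2.67 ± 0.44, belonged to ENSDARG00000056043, which has no symbol. Without 0 dpa replicate 1 the log2 changes were larger, at 3.39 for sfrp2l, 3.39 for ENSDARG00000056043, 2.65 for PDLIM3, 2.60 for cxl34c and 2.43 for hrh3, against 2.39, 2.67, 1.96, 1.70 and 1.78 with it. The other 21 calls included hrh3, PDLIM3, cxl34c, TCF7, sgk1, tlr18, UNC5B, FREM1 and PRDM1, each lost in at least 1 other setting. TCF7 was lost without 0 dpa replicate 1 (adjusted p = 0.0501, with 0.000193 to 0.0501 over all 18). PDLIM3 and sgk1 were lost without 0 dpa replicate 2 (adjusted p = 0.0564 for each, with lowest values of 0.000111 and 0.000483 over all 18).

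The count of genes higher at 10 dpa fell to 16 without 0 dpa replicate 2, to 22 without 10 dpa replicate 1 and to 23 without 10 dpa replicate 2 or 3. The share over all genes in these fits was not computed. In the main fit no gene passed in both comparisons: 35 were higher at 10 dpa, 8 others were lower at 3 dpa and 97 passed neither. For passing both or neither, no share over all genes was computed. The gene cxl34c was among the 35, and it passed 3 against 2 dpa in some other settings. RET and MET were among the 97, with log2 changes from 0 to 10 dpa of -0.21 ± 0.40 and -0.02 ± 0.18.

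**Figure D3:**
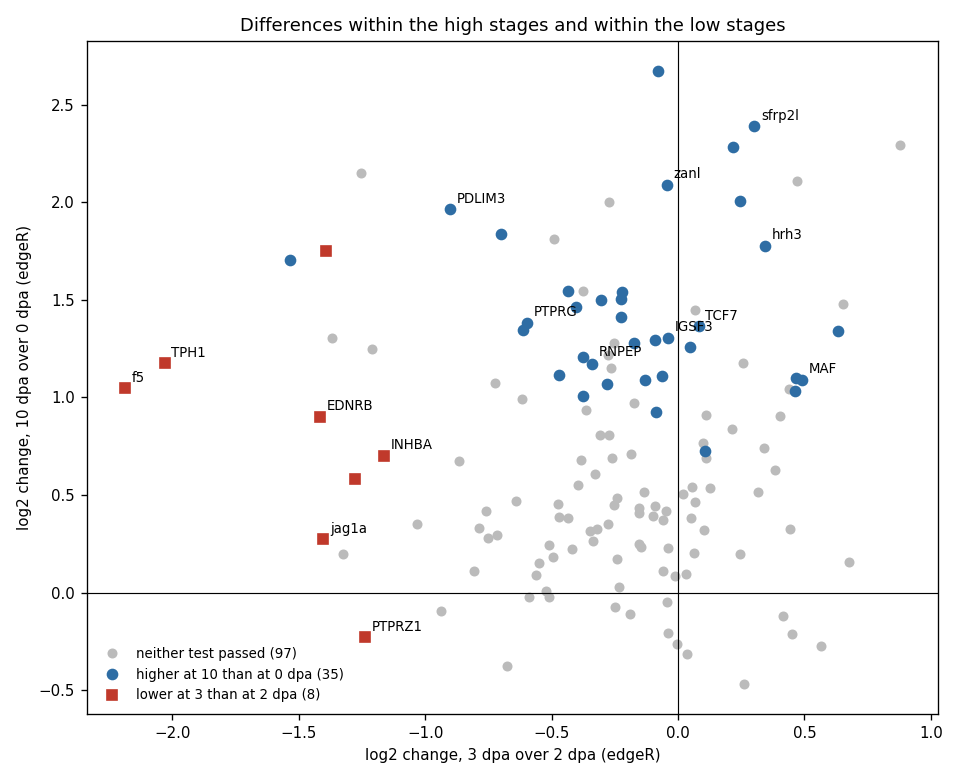
Log2 change of each of the 140 genes from 2 to 3 dpa (x axis) and from 0 to 10 dpa (y axis), both by edgeR. Blue points are the 35 genes higher at 10 dpa, red squares the 8 genes lower at 3 dpa, and grey points the 97 that passed neither test. The cloud lies mostly above 0 on the y axis, with 125 positive changes. The median y value over all genes tested was 0.04, and their share of positive changes was not computed.

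Within 2 dpa the members split by library. Replicate 2 was the highest 2 dpa library for 57 members, the lowest for 52 and in the middle for the rest. Of the 15 lysosome, lipid and leukocyte genes it was lowest for 11 and highest for 3, and of the 24 receptors and adhesion proteins it was highest for 11 and lowest for 6. Its value over the mean of replicates 1 and 3 was 5.58 for cd248b, in mammals a marker of pericytes and fibroblasts, 3.44 for cald1b, 3.30 for gfra3 and 2.54 for RET. It was 0.266 for krt93, 0.449 for apoc1, 0.462 for ctsla and 0.519 for JUNB. Replicate 2 of 3 dpa was highest of its stage for 88 of the 140 members. These positions are by column total, and no share over all genes was computed for them. The TMM factors of replicates 1, 2 and 3 were 0.98, 1.132 and 1.005 at 2 dpa and 0.9313, 1.085 and 0.9679 at 3 dpa. Scaling by them would lower replicate 2 against its fellows at both stages. The part of sampling or tissue composition in these splits was not tested.

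For RET, gfra3, EDNRB, MET, VIPR1, cckbra, hrh3, UNC5B and PTPRZ1, genes of known ligands or of their synthesis were looked up. That choice was made after the members were known. Ligands of other receptors among the members, such as epha7 and CMKLR1, were not looked up. The ligand genes edn3b and edn1, for endothelin receptors, were lower at 2 and 3 dpa than at 0 and 10 dpa, opposite to EDNRB. The gene edn3b read 4.91, 6.71 and 2.38 CPM at 0 dpa, 0 counts in all 3 libraries at 2 dpa, under 0.11 CPM at 3 dpa, and 1.00, 0.373 and 2.28 CPM at 10 dpa (edgeR, adjusted p = 1.9e-05). The edn1 mean went from 2.59 ± 0.451 CPM (SD, n = 3) to 0.826 ± 0.0375, 1.07 ± 0.230 and 3.08 ± 0.130 CPM (edgeR, adjusted p = 3.5e-05). Another endothelin gene, edn2, averaged 2.42, 2.86, 2.86 and 7.68 CPM and did not pass (edgeR, adjusted p = 0.141, and 0.0456 without 2 dpa replicate 3).

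For RET, GDNF read 1.79, 1.70 and 0.906 CPM at 0 dpa and 0 counts in every 2 dpa library (edgeR, adjusted p = 2.86e-05). The artemin genes artna and artnb, ligands for gfra3, stayed under 0.5 CPM in every library and were too low to test. For MET, hgfa averaged 2.04, 0.831, 1.29 and 5.35 CPM (2 and 3 dpa against 0 and 10 dpa, edgeR, adjusted p = 2.35e-04). Its 3 dpa values of 2.14, 0.919 and 0.809 CPM overlapped the uncut fin at 1.86, 1.78 and 2.49 CPM, and its mean was highest at 10 dpa. For VIPR1, ADCYAP1, which codes for PACAP, averaged 5.51, 0.310, 1.18 and 4.09 CPM (edgeR, adjusted p = 9.46e-05). VIP, CCK and HDC, the last the enzyme that makes histamine, were too low to test, as were nrtn for RET and HGF for MET. PTN, looked up for PTPRZ1, and further identifiers of GDNF and NTN1 were not among the counted genes, so their levels are unknown. For PTPRZ1 the midkine gene MDK (ENSDARG00000036036), a ligand of that phosphatase in mammals, was higher, and it averaged 131 ± 56.4, 1010 ± 380 and 1850 ± 332 CPM (SD, n = 3) at 0, 2 and 3 dpa and 597 ± 118 CPM at 10 dpa (edgeR, adjusted p = 2.48e-06). A second MDK identifier (ENSDARG00000020708) averaged 22.6, 8.92, 28.1 and 18.0 CPM and did not pass (edgeR, adjusted p = 0.146, and 0.0372 without 3 dpa replicate 1). For UNC5B, the netrin gene NTN1 averaged 0.726, 0.274, 0.901 and 0.883 CPM and did not pass (edgeR, adjusted p = 0.206). DDC, whose enzyme completes serotonin synthesis after TPH1, read 3.55, 2.48 and 7.22 CPM at 2 dpa and 0.321, 0.482 and 0.736 CPM at 3 dpa, when TPH1 still averaged 32.4 CPM.

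**Figure D4:**
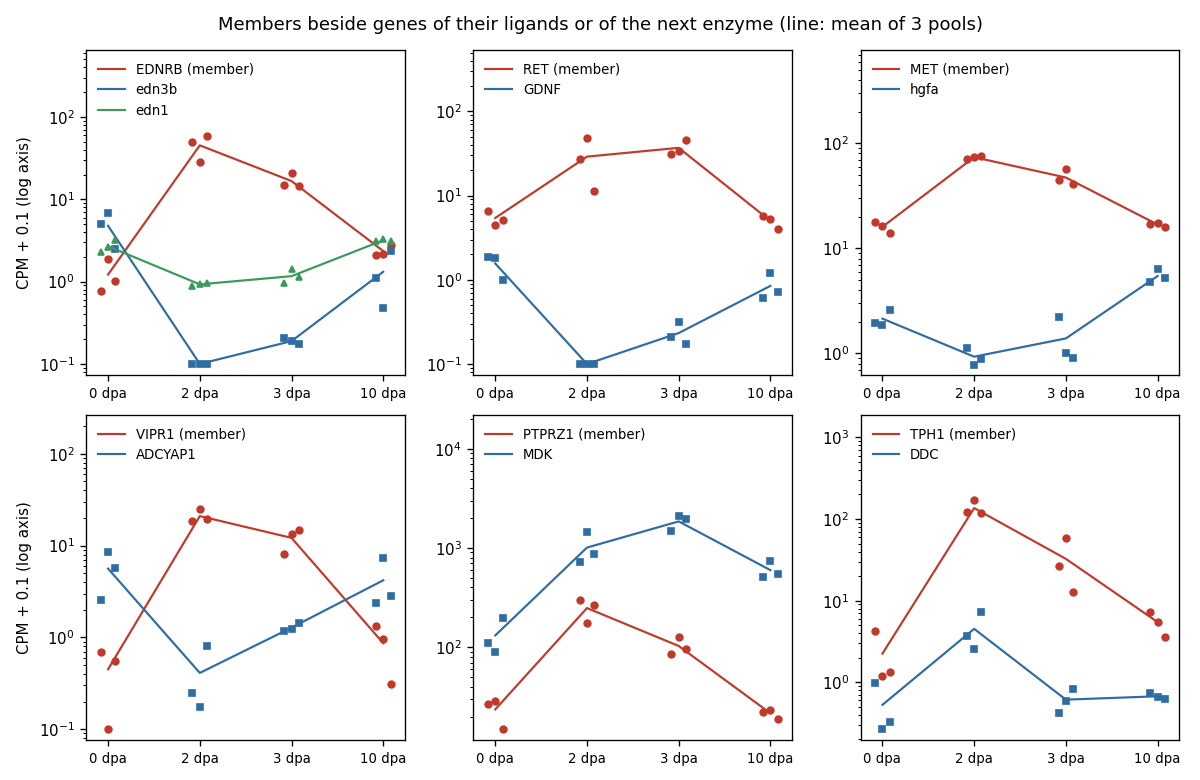
Levels of 6 members (red circles) beside the gene of a ligand or, for TPH1, of the next enzyme (blue squares, green triangles for edn1), as CPM + 0.1 on a log axis by stage; points are libraries and lines join means of 3 pools. For MDK the identifier ENSDARG00000036036 is drawn. The ligand genes edn3b, edn1, GDNF, hgfa and ADCYAP1 are low at 2 dpa where EDNRB, RET, MET and VIPR1 are high, whereas MDK and DDC are raised at 2 dpa with PTPRZ1 and TPH1.

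Zebrafish carry many genes as duplicates, and 23 members share their symbol with another identifier. Of these 23 other identifiers, 17 could be tested, and between 2 and 3 dpa and 0 and 10 dpa 3 were higher, 6 were lower and 8 did not pass (edgeR), of which 4 passed in at least 1 other setting. Over all genes tested, 25.3% were higher and 25.8% lower in that comparison. The other EDNRB gene (ENSDARG00000089334) averaged 14.6, 0.293, 0.814 and 12 CPM, with a log2 change of -4.83 (edgeR, adjusted p = 3.46e-08), a course opposite to that of the member. The other identifiers of TPH1, MAF, PTPRG and ELAPOR2 were also among the lower ones, and those of SEMA5B, INHBA and TDG were the higher ones. The second INHBA gene averaged 15.3, 52.2, 56.5 and 35.2 CPM, with its highest mean at 3 dpa, where the member INHBA had fallen. How reads of similar copies were divided in counting is not given in the sources used here.

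The pathways around the members were followed through 19 gene lists, of which 714 different genes were tested for 2 and 3 dpa against 0 and 10 dpa. Of the 140 members 18 stood on a list, and their own calls follow from the choice of genes. The shares of each list are set beside 25.3% higher and 25.8% lower over all genes tested. These shares include the members, and any listed gene left out by name, whose rise the same choice fixed. Removing the members did not remove such left-out genes. Without the members 13 of 46 Wnt, 7 of 26 Fgf and 17 of 58 TGF-beta, activin and BMP genes rose. In the IL-6 family and JAK-STAT list 8 of 25 did, in wound epidermis 21 of 66 and in integrins and focal adhesion 17 of 67. In the Wnt list 15 of 48 genes rose (31.2%) and 20 fell (41.7%). LEF1, the partner of beta-catenin related to TCF7, averaged 36.8, 293, 349 and 111 CPM, while the antagonists dkk2, frzb and WIF1 were the largest falls, WIF1 going from 111 CPM to 5.55 CPM at 2 dpa. In the Fgf list 8 of 27 rose (29.6%), among them etv5b beside the member ETV4, and 12 fell (44.4%), among them fgfr4, from 79.4 to 7.87 CPM at 2 dpa.

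In the list of TGF-beta, activin and BMP genes, which holds INHBA and BAMBI, 19 of 60 rose (31.7%) and 21 fell (35.0%). TGFB2 averaged 5.08, 33.6, 26.1 and 12.5 CPM, and BMP3 averaged 59.4, 3.96, 12.4 and 53.4 CPM. Of the IL-6 family and JAK-STAT list, with JUNB among its members, 10 of 27 rose (37.0%) and 9 fell (33.3%). Blastema and distal fin regulators, with ALDH1A2, SALL4, TPH1, jag1a and HSPD1 as members, rose in 34 of 67 (50.7%) and fell in 16 (23.9%). Without the members 29 of 62 rose and 16 fell, any gene left out by name still being counted. The median log2 change of that list, members included, was 0.53. Wound epidermis genes, with fras1 and FREM1, rose in 23 of 68 (33.8%) and fell in 20 (29.4%), and the integrin and focal adhesion list, with TLN2, rose in 18 of 68 (26.5%) and fell in 21 (30.9%). ITGA5, the fibronectin receptor subunit, averaged 27.4, 216, 143 and 74.8 CPM, and ITGB4, of hemidesmosomes, 2980, 513, 497 and 1850 CPM.

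HYOU1, which the ratio had taken and which was left out by name, is on the endoplasmic reticulum folding list. Its rise there follows from the choice of genes. Of genes for mitosis and DNA replication, 49 of 59 rose and 1 fell, and kif11, a spindle motor, averaged 2.33, 32.1, 30.7 and 14.6 CPM. Of endoplasmic reticulum folding genes 28 of 31 rose, of those for entry into the reticulum 20 of 21, of N-glycosylation genes 34 of 46 and of vesicle coat and cargo receptor genes 42 of 58 with 1 fall. The unfolded protein and amino acid response rose in 20 of 34 and fell in 5, and fibrillar collagens and their enzymes rose in 19 of 40 and fell in 5. Among the cell type markers, 8 of 15 endothelial, 9 of 13 neutrophil, 6 of 16 osteoblast and 4 of 7 erythrocyte and plasma genes fell, while 1 neutrophil, 2 osteoblast and 2 erythrocyte and plasma genes rose. The rises of the last list include f5, which is a member. None of the 15 endothelial genes was higher by edgeR at the adjusted limit. These calls set 2 and 3 dpa together against 0 and 10 dpa together. The summed endothelial level was 196 to 219, 63.6 to 143, 228 to 300 and 325 to 353 CPM at 0, 2, 3 and 10 dpa. The osteoblast sum was 686 to 1900, 530 to 2060, 4370 to 5230 and 4700 to 7410 CPM. At 3 dpa both sums thus lay above those of the uncut fin.

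**Figure D5:**
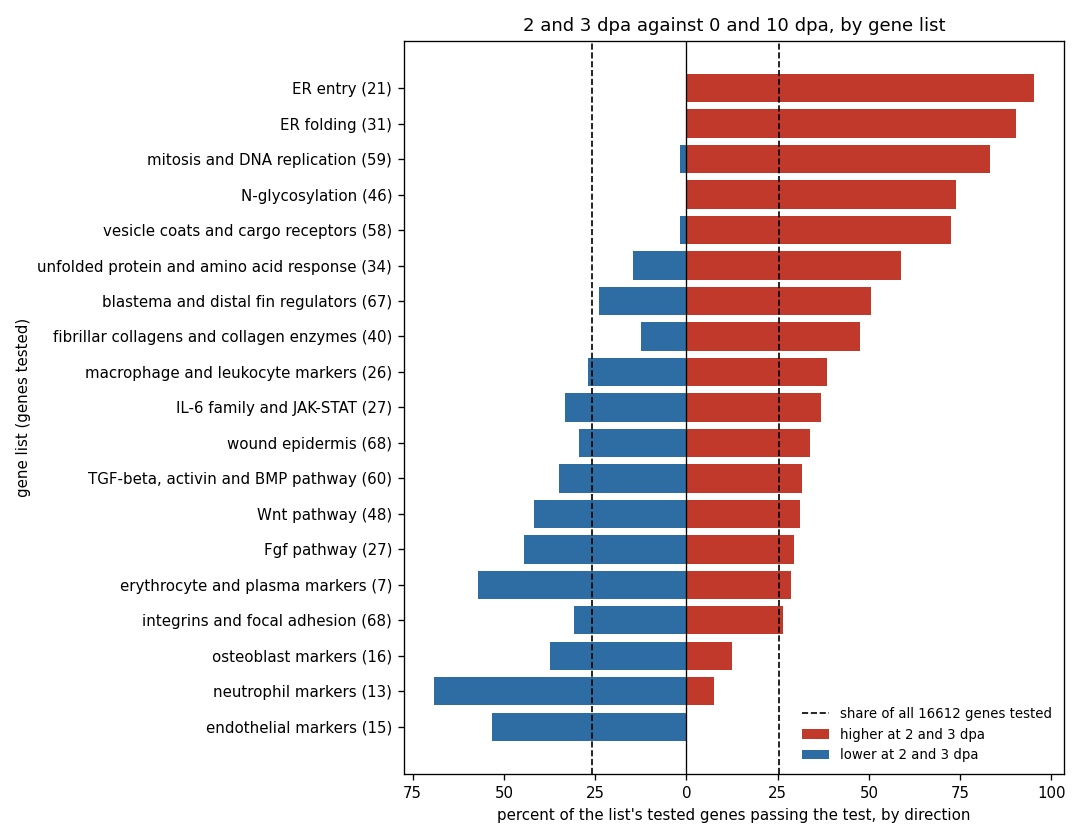
Percent of the tested genes of each list (number in brackets) that were higher (red, right) or lower (blue, left) at 2 and 3 dpa than at 0 and 10 dpa by edgeR at an adjusted p under 0.05; dashed lines mark the same shares over all 16612 genes tested, 25.3% and 25.8%. The mitosis and endoplasmic reticulum folding lists lie far to the right, with 49 of 59 and 28 of 31 genes higher, and the Wnt list reaches 31.2% on the right and 41.7% on the left. Members and genes left out by name are included in the shares of a list that holds them.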

How the data were processed

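RNA of 12 pools of caudal fin was prepared with a Lexogen SENSE kit and read on SOLiD Wildfire equipment, per the labels' protocols. The authors deposited raw counts per Ensembl gene identifier, 1 column per library, per the file headers. For the aligner, counter, build and strand setting, nothing is stated in the labels or headers. No filter or scaling had been applied to the counts, as far as the values show.

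Levels are CPM by column total, as in the rule that chose the genes. Log2 changes come from edgeR (version 4.0.16, run in R 4.3.3): TMM scaling, genes kept by filterByExpr at a count minimum of 10, and a robust quasi-likelihood test in a single model of the 12 libraries whose factor was stage. P-values were adjusted by Benjamini-Hochberg over 16612 genes with a threshold of 0.05, and all 140 members were tested. The procedure was tested on simulated counts with a common spread for all genes and no effect of single libraries. That test therefore does not cover the dependence of calls on single libraries. Genes that share a symbol, overlap or lie antisense are uncertain in counting. The named genes were left out after the 150 largest ratios had been taken.

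The members, the 19 gene lists, the roles and the tests were chosen with earlier results of these data known. Of 969 list entries, 576 were matched by symbol, 209 by a capital symbol without the paralog letter, and 184 were not matched. Genes named include members with the largest ratios overall and within each role, those passing either test and members on a list. They also include those next to the limit, and list genes with the largest changes whose libraries do not overlap. Other members, such as MET and krt93, were named by choice after the members were known. Some genes that meet these rules are not named. Of the 121 symbols of members, 65 are in capitals and follow the human gene. Alternatives were RLE normalisation, no filter, a replicate block, the compared stages alone, DESeq2 (version 1.42.0) and leaving out each library. Unscaled library totals were added after seeing the data. No sequences or coordinates are printed, and gene lengths were not used, so levels are not compared between genes. Values of some genes are not reported here.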

Additional observations from a re-analysis of the deposited data

How the results depend on the processing

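The membership rule took 134 of the 140 genes with TMM-scaled CPM, 132 with 0.1 and 110 with 5 in place of 1 CPM added, 132 and 117 with minimum means of 1 and 10 CPM, and 120 to 137 with 1 library left out. A library left out of the choice lay on the expected side for 95.0 to 100% of genes chosen from the other 11. Of the count of members lower at 3 dpa (8), values were 0 in the fit of the compared stages, 14 by DESeq2 and 1 to 16 with 1 library left out; of members higher at 3 dpa (0), 0 to 2. Members higher at 10 dpa (35) numbered 16 to 43 with 1 library left out, and 34 to 44 in the other settings. With the replicate block the counts were 8 lower at 3 dpa and 44 higher at 10 dpa. Shares over all genes were computed for the main fit only. Same-numbered libraries had a median correlation of deviations of 0.119 (11 of 18 pairs over 0.1), against -0.0442 for other pairs. Of the 12 libraries, 9 correlated best with their own number. Replicate numbers follow a field of the library names whose meaning is not stated. The main model leaves them out, so an effect shared by same-numbered libraries is not removed there. Among list counts at 2 and 3 dpa, unfolded protein response falls (5) were 2 with unscaled totals and 2 to 5 with 1 library left out. Rises among neutrophil markers (1) were 0 with RLE and 0 to 1 with 1 library left out, and their falls (9) were 5 to 9. Falls were 1 to 2 for mitosis, 5 to 8 for fibrillar collagens (8 without 2 dpa replicate 2) and 2 to 4 for erythrocyte and plasma markers, and endothelial rises were 0 to 1. The cause of these shifts was not tested. The other list counts stayed within 1.5 times. No called member reversed. The calls of 7 ligand or enzyme genes, 9 same-symbol identifiers and 4 nerve markers held in 17 other settings. Depth limits members near 0 in the uncut fin, where 4 had a library at 0 counts.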
